A study of Mus musculus with 13 samples.

Results

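The DNA of 2 mouse leukaemias, B-ALL (B-cell acute lymphoblastic leukaemia) and AML (acute myeloid leukaemia), was compared variant by variant. A call counted in a library if it had a depth of 10 reads or more and a quality of 100 or more, if 4 or more reads and a share of 0.2 or more of all reads held the alternative allele, and if it lay outside annotated segmental duplications on chromosomes 1 to 19. Alleles called at any depth in any of the other 5 libraries of the series were dropped. Of the 9451 SNVs (single base variants) and 13282 INDELs (short insertions and deletions) that passed the limits in B-ALL, and the 9629 SNVs and 14767 INDELs that passed in AML, 836 SNVs and 4437 INDELs were left. They were sorted into those passing in both libraries (310 SNVs, 372 INDELs), those of B-ALL only (204 and 1414) and those of AML only (207 and 1852), where "only" means not called at all in the partner. The remainder passed in 1 of the 2 and was called below the limits in the other. These were 37 SNVs and 313 INDELs that passed in B-ALL, and 78 SNVs and 486 INDELs that passed in AML.

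Both leukaemias arose in C57BL/6 mice, labelled as 8 to 10 weeks, whose blood-forming cells carried a retroviral N-Myc construct together with GFP. The B-ALL library came from 2000000 B220+GFP+ bone marrow cells and the AML library from 2000000 Mac1+Gr1+GFP+ bone marrow cells. The other 5 libraries were T-ALL (CD3+), AUL (lacking these markers), 2 sorted fractions of a mixed phenotype leukaemia (M-MPAL, myeloid, and T-MPAL, T-lymphoid) and an empty control of GFP+ cells. Each group had 1 library, so no difference has a replicate check, and no matched normal DNA is named in the labels: inherited and acquired variants cannot be told apart. The labels do not say whether the B-ALL and AML cells came from 1 mouse or from 2, nor how many mice were used. The median depth over all autosomal SNV calls was 39 reads in B-ALL and 38 in AML, and over the other libraries it was 35 to 41. Intervals given with values are exact 95% intervals. Those of counts and shares cover only the error of counting, and those of medians rest on the spread over sites. None covers differences between libraries or mice. Molecular identifiers were not used and several reads can stem from 1 molecule, so intervals from reads can be too narrow.

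N-Myc is a transcription factor of the Myc family that drives growth and division, and its overexpression is found in several cancers. B220 marks cells of the B lineage, which cut and rejoin their immunoglobulin gene segments, while Mac1 and Gr1 mark myeloid cells, which do not. A variant present on 1 of 2 chromosome copies in every cell is read in about 1 of 2 reads. C>T changes (with G>A on the other strand) are the most frequent base change in most cell genomes, and runs of short repeated units change their length more often than other sequence.

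Shared variants are shown first in their sequence, since most lie outside genes. Of the shared SNVs 5 lay just upstream of a gene, and 3 more in the RNA gene Rpph1 that shares its start region with Parp2. The reference sequence (RefSeq, GRCm38.p6, plus strand) is printed with the changed bases in capitals, for the Rpph1 and Parp2 region, for the promoters of Kif20b (a mitotic kinesin) and Cnep1r1 (a subunit of a nuclear envelope phosphatase), all 3 shared, and for that of Npy (neuropeptide Y), changed in B-ALL only.
Parp2 (chr14:50807666-50807758): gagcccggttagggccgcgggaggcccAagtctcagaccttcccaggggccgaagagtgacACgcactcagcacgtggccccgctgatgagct
Kif20b (chr19:34922185-34922245): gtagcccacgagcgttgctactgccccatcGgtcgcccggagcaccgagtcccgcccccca
Cnep1r1 (chr8:88118605-88118665): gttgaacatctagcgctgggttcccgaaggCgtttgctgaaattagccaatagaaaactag
Npy (chr6:49822460-49822508): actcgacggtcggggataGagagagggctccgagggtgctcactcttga
Counted from 1 at the 5′ end of each printed sequence, the changes are A28C, A62G and C63A at Parp2, G31T at Kif20b, C31T at Cnep1r1 and G19A at Npy. Kif20b had 8 of 17 reads with the change in B-ALL and 12 of 27 in AML, Cnep1r1 7 of 16 in B-ALL and 16 of 33 in AML, and Npy 7 of 19 in B-ALL. No motif was searched in them.

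Most shared INDELs were insertions, and most lay in simple repeats, runs of a short unit. The 4 shared insertions of 4 bases with the most alternative reads and at most 60 reads in both libraries are printed as the deposited alternative allele, with the added bases in capitals.
chromosome 5 from 134345732: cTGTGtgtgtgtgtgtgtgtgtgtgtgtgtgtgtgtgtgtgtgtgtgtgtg
chromosome 8 from 105273185 (intron of Hsf4): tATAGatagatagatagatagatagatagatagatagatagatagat
chromosome 9 from 92565449 (intron of Plod2): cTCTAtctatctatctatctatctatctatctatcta
chromosome 16 from 16285681: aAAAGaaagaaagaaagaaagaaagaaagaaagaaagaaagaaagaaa
The first had 21 of 25 reads in B-ALL and 21 of 24 in AML. The insertion in Hsf4, a heat shock transcription factor gene, had 13 of 16 in B-ALL and 23 of 25 in AML. The insertion in Plod2, a collagen lysyl hydroxylase gene, had 13 of 13 in B-ALL and 22 of 24 in AML. The last had 13 of 16 in B-ALL and 20 of 20 in AML. All 4 had shares of 0.8 or more in both libraries, and none is typical in that: over all shared INDELs the median share was 0.50 in B-ALL and 0.538 in AML.

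The pair shared more than most pairs of libraries did. The 310 shared SNVs (interval 276 to 347) made up 56.3% of the 551 passing SNVs that B-ALL held apart from the other 5 libraries and 52.1% of the 595 of AML. Among the 21 possible pairs of libraries, sorted by the same rule, only M-MPAL and T-MPAL shared more, with 476 SNVs, which was 27.0% of the M-MPAL set and 39.7% of the T-MPAL set. The pair ranked next, AUL and T-ALL, shared 30. Among INDELs the 372 shared variants (335 to 412) were 17.7% of the 2099 of B-ALL and 13.7% of the 2710 of AML, again behind the MPAL fractions (432) and ahead of the pair of empty control and T-ALL (84). The lead of the shared class among SNVs rests on the quality limit. Without a quality minimum there were 523 shared SNVs, against 1285 of B-ALL only and 1405 of AML only.

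Shared variants had lower read shares in B-ALL than in AML. Over the 310 shared SNVs, the median alternative read share was 0.396 in B-ALL (interval of the median 0.381 to 0.410) and 0.468 in AML (0.450 to 0.484). The share was lower in B-ALL at 224 SNVs and higher at 82. All reads together gave 3938 alternative reads of 9301 (42.3%) in B-ALL and 4544 of 9408 (48.3%) in AML. In B-ALL 37 of the shared SNVs lay below a share of 0.3 and none reached 0.9, whereas in AML 16 lay below 0.3 and 7 reached 0.9. The shift was much smaller at SNVs that passed in both libraries but were also called elsewhere. At 3946 such SNVs with shares under 0.9 in both, the medians were 0.508 in B-ALL and 0.513 in AML, and the share was lower in B-ALL at 53.5% of them. Limited to at most 60 reads, 1984 such SNVs gave 0.465 in B-ALL and 0.475 in AML, while 288 SNVs shared by the pair alone gave 0.385 in B-ALL and 0.455 in AML.

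No single shared SNV passed the test of its read shares. The two-sided Fisher's exact test on the reads of each site, with Benjamini-Hochberg adjustment over all 310, called 0 sites (0% of those tested). At an unadjusted p under 0.05 it called 20 (6.45%), of which 16 (5.16%) had the lower share in B-ALL and 4 (1.29%) the higher. This test compares the reads of these libraries and not B-ALL with AML as conditions. The smallest p was at an intergenic SNV on chromosome 7 (position 111868444), with 15 of 21 reads in B-ALL and 7 of 26 in AML (exact p = 0.00344, adjusted p = 0.674). At most other sites of low p the order was the opposite, as at chromosome 2 position 171186378, with 25 of 31 reads in B-ALL and 32 of 32 in AML (exact p = 0.0108, adjusted p = 0.674). The 204 SNVs of B-ALL only had a median share of 0.388 (0.375 to 0.409) and the 207 of AML only 0.429 (0.409 to 0.444), so the separate variants of B-ALL had the lower median too.

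**Figure D1:**
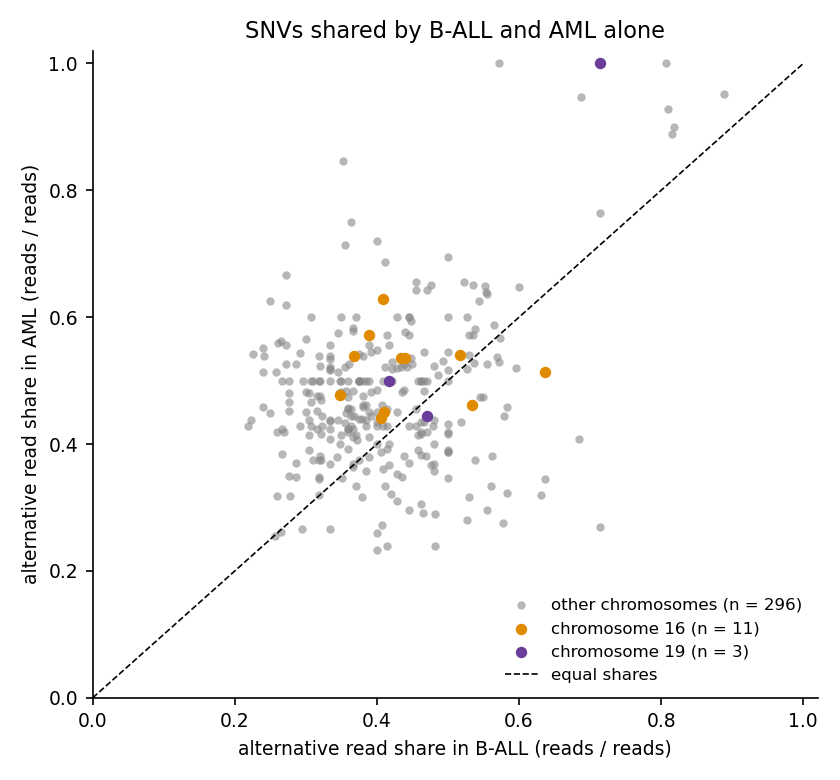
Each point is 1 of the 310 SNVs shared by B-ALL and AML alone, with its alternative read share in B-ALL (horizontal axis) and in AML (vertical axis), and the dashed line marks equal shares. More points lie above the line (224, lower in B-ALL) than below it (82), and the points of chromosomes 16 and 19 lie among the others.

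Shared INDELs followed the same order with a smaller gap. Their median share was 0.50 in B-ALL and 0.538 in AML, with 217 of 372 lower in B-ALL and 116 higher. At the 1299 INDELs that passed in both, were called elsewhere too and had shares under 0.9, the medians were 0.550 in B-ALL and 0.564 in AML, and 49.5% were lower in B-ALL. The 307 INDELs shared by the pair alone with shares under 0.9 in both gave 0.462 in B-ALL and 0.50 in AML. Of these, 62.9% were lower in B-ALL. Fisher's exact test called 0 of 372 INDELs after Benjamini-Hochberg adjustment (0%) and 12 (3.23%) at an unadjusted p under 0.05, with 11 (2.96%) lower in B-ALL and 1 (0.269%) higher. The smallest p was at an INDEL in an intron of Muc19, a mucin gene, with 9 of 23 reads in B-ALL and 13 of 13 in AML (exact p = 0.000253, adjusted p = 0.0819). An intergenic INDEL on chromosome 5 (position 97823817) had 9 of 30 reads in B-ALL and 13 of 15 in AML (exact p = 0.000440, adjusted p = 0.0819).

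**Figure D2:**
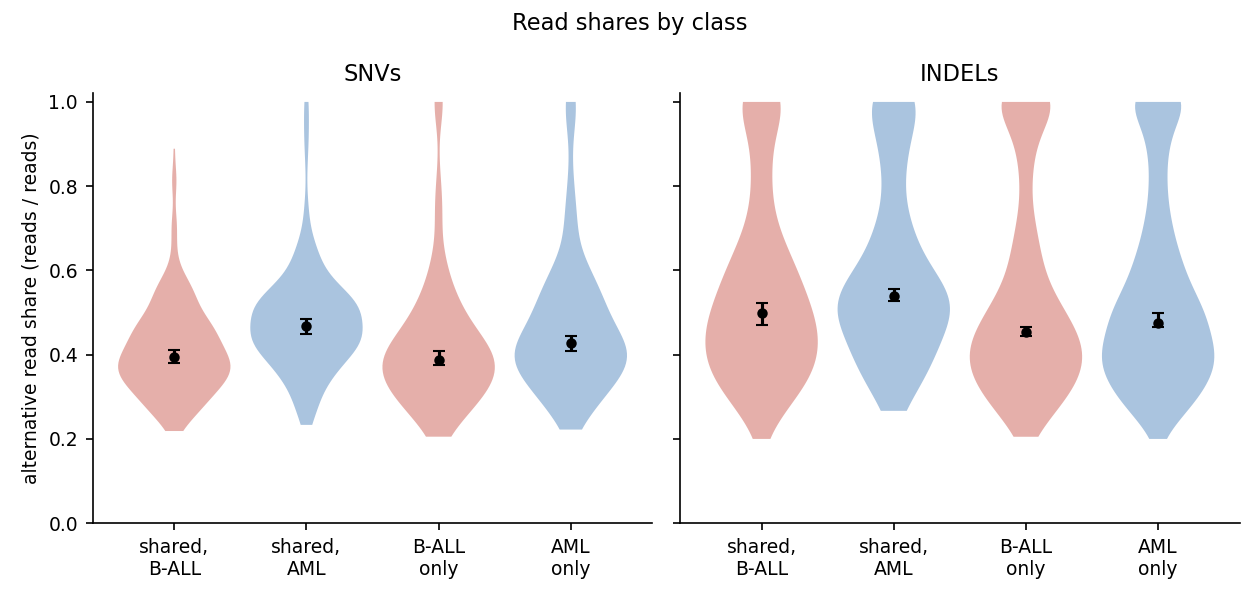
Distribution of alternative read shares (vertical axis) of shared variants in B-ALL and in AML and of the variants of B-ALL only and AML only, for SNVs (left panel) and INDELs (right panel). Points are medians with their 95% intervals: 0.396 in B-ALL and 0.468 in AML for shared SNVs, 0.50 in B-ALL and 0.538 in AML for shared INDELs.

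Shared SNVs differed from the separate ones in the kind of base change, while the separate classes were much alike. C>T changes made up 142 of the 310 shared SNVs, or 45.8% (40.2 to 51.5), against 30.4% (24.2 to 37.2) of the SNVs of B-ALL only and 28.5% (22.5 to 35.2) of those of AML only. The interval of the shared class lay above both others. It also lay above the 28.3% among all passing SNVs of B-ALL and the 28.1% among those of AML. Less frequent among shared SNVs than among separate ones were C>A changes (13.9% shared, 21.6% of B-ALL only, 19.3% of AML only) and T>G changes (7.74% shared, 13.7% of B-ALL only, 14.5% of AML only), with intervals that overlapped. The raised C>T share was not particular to this pair: the SNVs shared by M-MPAL and T-MPAL alone had 48.7% (44.2 to 53.3).

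Earlier listing was rarer in the 3 classes than in all passing calls, but this gap is no result about the classes. They leave out every allele called in the other 5 libraries, and all passing calls keep such alleles. Of the SNVs that passed in both libraries and were called elsewhere too, 79.8% were listed. Of the shared SNVs 11.3% were listed in dbSNP, a catalogue of known mouse variants, against 17.6% of B-ALL only and 23.7% of AML only, and 75.2% of all passing SNVs of B-ALL and 74.7% of those of AML. Annotated repeats held 46.5% of shared SNVs, 51.0% of B-ALL only and 51.2% of AML only. Intergenic positions made up 62.6% of shared SNVs, 67.6% of B-ALL only and 61.4% of AML only, and introns 30.0%, 27.9% and 31.4% in the same order of classes. Among all passing SNVs, intergenic positions made up 57.5% in B-ALL and 57.4% in AML, and introns 32.8% in B-ALL and 32.9% in AML. The intervals of these 3 shares overlapped between the classes, while the dbSNP share of shared SNVs (7.99 to 15.4) lay below that of AML only (18.1 to 30.1). Alternative reads came from both strands at 98.1% or more of the SNVs of each class.

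INDELs separated the classes more sharply than SNVs. Insertions were 70.4% (65.5 to 75.0) of the shared INDELs, 37.3% (34.7 to 39.9) of those of B-ALL only and 42.2% (39.9 to 44.5) of those of AML only. Insertions of 4 bases, as in the tracts printed above, made up 33.1% (28.3 to 38.1) of shared INDELs, 8.63% (7.22 to 10.2) of B-ALL only and 9.61% (8.31 to 11.0) of AML only. Deletions of 2 bases showed the opposite order, with 6.99% (4.62 to 10.1) of shared INDELs, 42.3% (39.7 to 44.9) of B-ALL only and 38.3% (36.1 to 40.5) of AML only. Among all passing INDELs, insertions were 41.5% in B-ALL and 41.7% in AML. Insertions of 4 bases were 11.9% in B-ALL and 11.9% in AML, and deletions of 2 bases 29.8% in B-ALL and 31.3% in AML. The repeated unit agat, counted with its rotations and its complement, made up 42 of the 123 shared insertions of 4 bases (34.1%), 16 of the 122 of B-ALL only (13.1%) and 29 of the 178 of AML only (16.3%). It made up 32.3% of all passing insertions of that length in B-ALL and 31.5% in AML. The MPAL fractions had nearly the same profile in the INDELs they shared, with 69.0% insertions, 30.6% insertions of 4 bases and 4.86% deletions of 2 bases. Simple repeats held 77.4% of shared INDELs, 86.6% of B-ALL only and 86.3% of AML only. Of all passing INDELs they held 64.9% in B-ALL and 66.5% in AML. Outside annotated repeats there were 20 shared INDELs, 21 of B-ALL only and 30 of AML only.

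**Figure D3:**
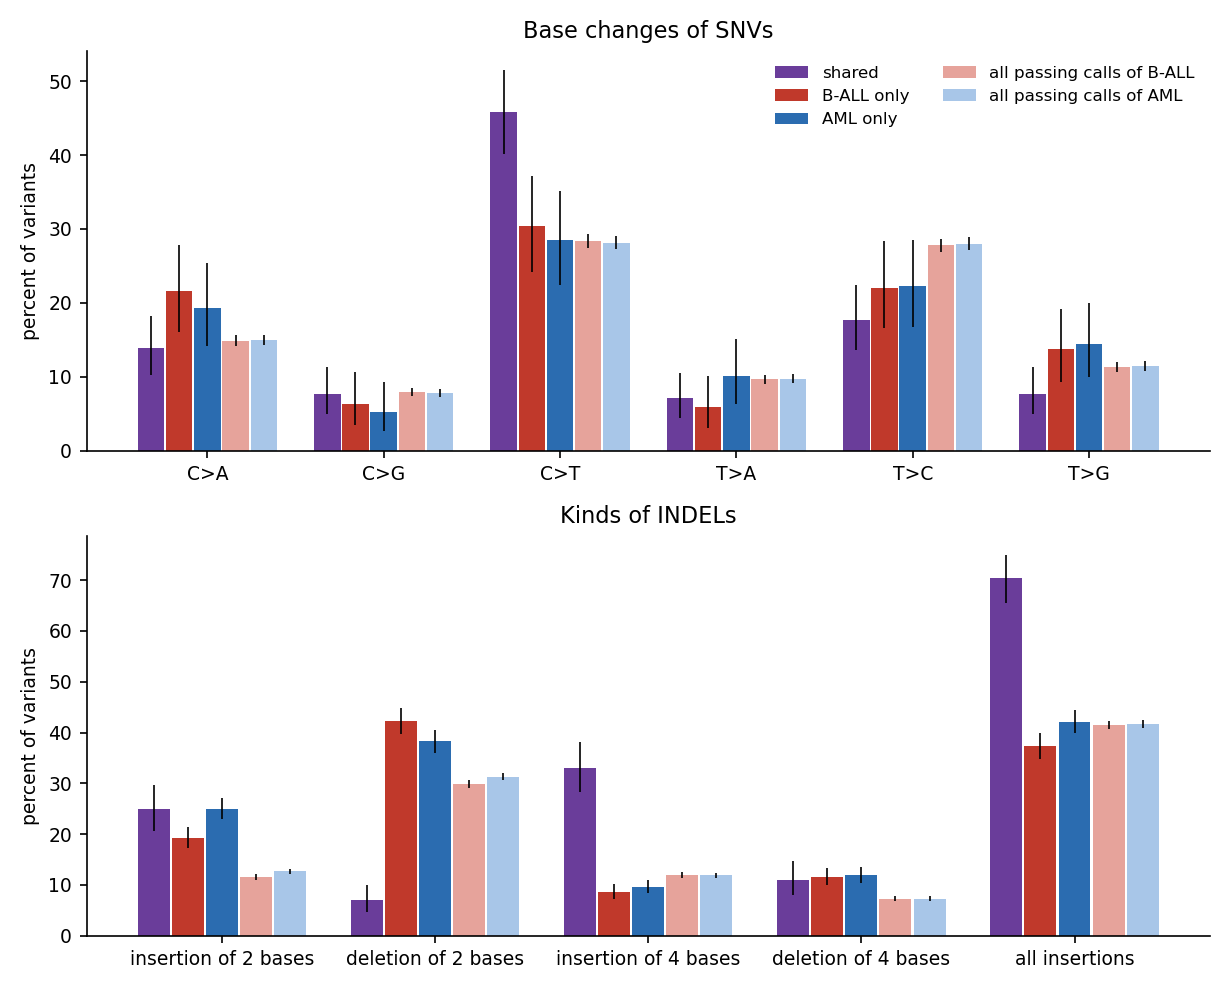
Percent of variants (vertical axis) by base change for SNVs (upper panel) and by kind for INDELs (lower panel), in shared, B-ALL only and AML only variants and in all passing calls of each library, with exact 95% intervals as lines. Shared SNVs stand above the other sets in C>T (45.8%), and shared INDELs stand above them in insertions of 4 bases (33.1%) and below them in deletions of 2 bases (6.99%).

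Few of these variants altered a protein: 4 shared SNVs, 2 of B-ALL only and 5 of AML only, and no INDEL of any class. Exons held 1.94% of shared SNVs, 0.980% of B-ALL only and 2.42% of AML only, synonymous changes included. Of all passing SNVs exons held 1.88% in B-ALL and 1.91% in AML, so low numbers are not particular to these classes. Of all passing INDELs they held 0.120% in B-ALL and 0.102% in AML. Among the shared protein-altering SNVs, Pik3c2b, which encodes a class II phosphoinositide 3-kinase, carried L1155V in exon 23 on chromosome 1 (position 133094784), with 7 of 22 reads in B-ALL and 8 of 23 in AML. Slc45a4, a solute carrier, carried R112C in exon 3 on chromosome 15 (position 73589485), with 7 of 23 reads in B-ALL and 14 of 32 in AML. Krtap15, a keratin-associated protein of hair, carried R78W in exon 1 on the gained chromosome 16 (position 88829278), with 16 of 39 reads in B-ALL and 18 of 40 in AML. These 3 lay at or below a share of 0.45 in both libraries. Amz1, a zinc metallopeptidase, differed from them: E78Q in exon 3 on chromosome 5 (position 140741515) had 11 of 16 reads in B-ALL and 36 of 38 in AML (Fisher's exact test p = 0.0191, adjusted p = 0.674). None of the 4 is on the lists of leukaemia, Myc network, DNA repair and chromatin genes used here.

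Each leukaemia held its own change in a gene of those lists. In B-ALL only, Trp53, which encodes the tumour suppressor p53, carried R210C in exon 6 on chromosome 11 (position 69588703) with 8 of 27 reads (29.6%), and AML had no call there. Fmo6, a flavin-containing monooxygenase, carried Q183H with 9 of 24 reads. In AML only, Smarca4, which encodes the ATPase Brg1 of the SWI/SNF chromatin remodellers, carried D1225H in exon 26 on chromosome 9 (position 21677576) with 13 of 28 reads (46.4%), and B-ALL had no call there. The other changes of AML only were D581N in Rgsl1 (14 of 23 reads), V1193I in AI314180 (9 of 22), M194I in Gm438 (8 of 26) and A678S in Pcdhb16, a protocadherin (12 of 27). A missense change of Csmd3, H3624N, passed in AML with 10 of 16 reads and was called in B-ALL with 5 of 18 at a quality below the limit. The read depth at a site without a call is not in the files, so absence there has no upper limit.

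Among the 181 listed genes found on these chromosomes, shared variants in an exon, intron or UTR fell in 3, variants of B-ALL only in 3 and variants of AML only in 7. That is 1.66%, 1.66% and 3.87%, against 1.07%, 2.32% and 2.83% of all 20665 protein-coding genes in the same order of classes. The listed genes are longer, with a median span of 34.3 kb against 17.5 kb. Apart from Trp53 and Smarca4 all of these variants were intronic, and all of the INDELs among them lay in annotated repeats. Shared were INDELs of Arid1b, another SWI/SNF subunit (8 of 17 reads in B-ALL, 12 of 18 in AML), Il10rb, a subunit of the interleukin-10 receptor (11 of 23 in B-ALL, 18 of 26 in AML), and Shoc2, a scaffold of RAS signalling (7 of 12 in B-ALL, 7 of 15 in AML). In B-ALL only, Erg, an ETS transcription factor of blood stem cells, had 2 INDELs with 7 of 24 and 12 of 32 reads. In AML only, Runx1, a transcription factor needed for definitive blood formation, had 3 INDELs with 11 of 41, 5 of 15 and 12 of 28 reads. Also in AML only, Ebf1, a B-cell transcription factor, had 2 INDELs (9 of 21 and 7 of 17), Tiam1, an activator of RAC, had 2 (7 of 14 and 11 of 28), Crebbp, a histone acetyltransferase, had 1 (6 of 20), and Idh2, a mitochondrial isocitrate dehydrogenase, had an SNV (13 of 36). A further Runx1 INDEL passed in AML (14 of 26) and was called in B-ALL (12 of 25) at a quality below the limit. The same held for an intronic Ebf1 SNV, with 6 of 17 reads in AML and 5 of 24 in B-ALL. Etv6, an ETS repressor, was the only listed gene with separate variants in both, a deletion of 2 bases in B-ALL (8 of 19) and a deletion of 3 bases in AML (5 of 25) at different positions. Over all genes, 98 had a variant of B-ALL only and another of AML only. Most were long, with a median span of 376 kb, and they included Ptprd, Rbfox1, Thsd7b and Wwox. Some were short: Mroh2a, of 35.3 kb, had 5 variants of B-ALL only and 2 of AML only. Its separate INDELs outside repeats had 91 of 133 and 17 of 59 reads in B-ALL and 51 of 73 in AML. The median depth was 17 reads in both separate INDEL classes, and the part of extra copies or misplaced reads was not tested. Overlapping Ugt1a genes, such as Ugt1a1 (8.04 kb), were counted gene by gene, though they can hold the same variant.

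The most alternative reads of a shared variant were at an SNV in a repeat in an intron of Gm7120 on chromosome 13 (position 119596567), with 208 of 349 reads in B-ALL and 175 of 337 in AML. Among shared variants at synonymous, UTR or ncRNA exonic positions, the 4 with the most alternative reads lay at the Rpph1 and Parp2 locus of chromosome 14, whose sequence is printed above. Rpph1 encodes the RNA component of RNase P, and Parp2 a poly(ADP-ribose) polymerase of DNA repair that starts beside it on the other strand. The 3 SNVs had 90 of 214, 88 of 199 and 86 of 198 reads in B-ALL and 102 of 197, 96 of 184 and 94 of 180 in AML. A shared deletion of 21 bases nearby (position 50807542) had 90 of 218 reads in B-ALL and 109 of 221 in AML. The depth was far above the library median, and the AML copy number table gave 4 copies for the 2 kb from chr14:50806001-50808000, where B-ALL and the 4 other whole tables had no row. The 310 shared SNVs included 7 clusters in which neighbours lay within 1000 bases, with 20 SNVs in all. The largest were 4 SNVs between positions 68249332 and 68249407 of chromosome 6, with shares of 0.485 to 0.573 in B-ALL and 0.509 to 0.568 in AML, and 4 between positions 57446894 and 57446930 of chromosome 10, with 0.523 to 0.554 in B-ALL and 0.625 to 0.656 in AML. Their median depths were 71 and 66 reads in B-ALL and 67 and 59 in AML. Over 60 reads in either library were found at 15 shared SNVs, and the part of extra copies in their depth was not tested.

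The cluster on chromosome 6 belongs to the Igk locus, where the kappa light chain segments lie. That locus held 7 shared SNVs, 3 SNVs of B-ALL only (35 of 68, 25 of 64 and 31 of 67 reads) and no SNV of AML only, and 3 INDELs of AML only. All of these variants lay in annotated repeats. The 3 SNVs of B-ALL only lay close to the shared cluster, at depths far above the median of 24 reads of their class. The part of misplaced reads in these calls was not tested. Neither table had a copy number row at Igh, Igk, Trb, Tra/Trd or Trg, so the rows show no loss by rearrangement in B220+ or in Mac1+Gr1+ cells. At Igl, on chromosome 16, each had a gain row. Rearrangements that these tables do not list were not tested, and DNA holds no measure of marker expression.

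Both leukaemias carried an extra copy of most of chromosome 16, and none of the other 4 whole tables gave such a gain. B-ALL had 127 gain rows covering 69.0 Mb and AML 159 covering 94.4 Mb, of which 122 in B-ALL and 154 in AML were at 3 copies. The 68.96 Mb in common were 99.99% of the gained length in B-ALL and 73.1% of that in AML, and 25.4 Mb were gained in the AML table alone. That difference held few genes. Of 679 protein-coding genes of the chromosome, 644 (94.8%) lay whole inside gain rows in B-ALL and 676 (99.6%) in AML. All 30 listed genes of chromosome 16 lay whole inside gain rows at 3 copies in both. They include the transcription factors Runx1, Erg, Ets2, Gabpa and Bach1, the B-cell genes Bcl6, Ciita, Vpreb1 and Igll1, the receptors Ifnar1, Ifnar2, Ifngr2 and Il10rb, and Crebbp, Usp7 and Dyrk1a. In the other whole tables, gains of chromosome 16 covered at most 0.078 Mb.

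Read depth at called SNVs gave a second measure of these copies from the same reads. At 4957 SNVs that passed in all 7 libraries, the depth of each library was divided by the mean depth of the libraries other than B-ALL and AML (leaving out the library itself) and scaled to a median of 1 outside chromosomes 16 and 19. On chromosome 16 the median ratio over 155 SNVs was 1.32 in B-ALL (1.28 to 1.36) and 1.40 in AML (1.36 to 1.48), against 0.940 to 1.06 in the other 5 libraries. A gain in every cell would give 1.5. The chromosome was not even in B-ALL: over the first 52 of its sites, up to position 18973712, the ratio was 1.13 (1.04 to 1.28) in B-ALL and 1.39 in AML, while over the next 51 it was 1.43 in B-ALL and 1.39 in AML. Of the listed genes named above, Crebbp, Usp7, Ciita, Vpreb1 and Igll1 lie in that first stretch, where the depth of B-ALL was raised least. The 11 shared SNVs of chromosome 16 had a median share of 0.410 in B-ALL and 0.536 in AML, and the 27 shared INDELs 0.529 in B-ALL and 0.710 in AML. At 9 of the 11 SNVs the share was lower in B-ALL. In an intron of Cxadr, an adhesion receptor gene, it was 8 of 23 reads in B-ALL and 21 of 44 in AML. The FREEC tables name the genotype AAA (3 like copies) for most of the gain, 67.9 Mb in B-ALL and 92.8 Mb in AML, with a median confidence of 2.95 in B-ALL and 3.57 in AML. Within those rows 7 of 7 shared SNVs in B-ALL and 11 of 11 in AML had a share under 0.9, as did 7 of 8 SNVs of B-ALL only and 7 of 7 of AML only. INDELs had more exceptions: 14 of 20 shared INDELs in B-ALL and 17 of 27 in AML were under 0.9, as were 70 of 89 of B-ALL only and 127 of 141 of AML only. Separate variants on the chromosome were 14 SNVs and 120 INDELs of B-ALL only, and 7 SNVs and 142 INDELs of AML only.

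**Figure D4:**
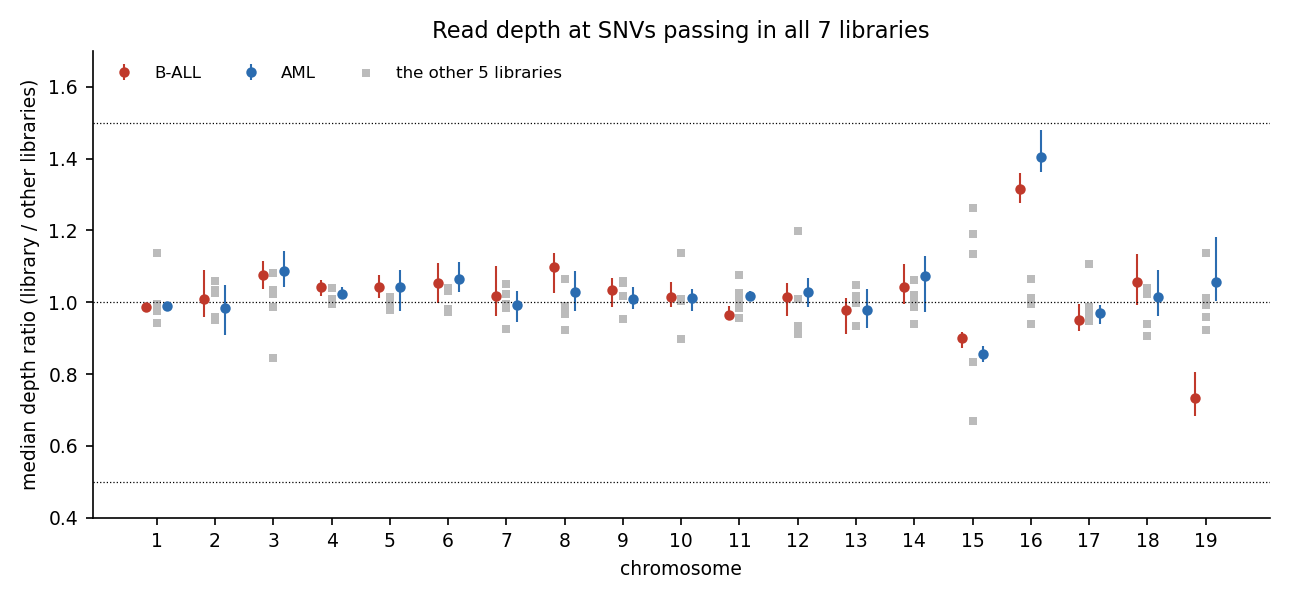
Median depth ratio (vertical axis, with 95% intervals of the median) on each chromosome (horizontal axis) at SNVs passing in all 7 libraries, for B-ALL, AML and the other 5 libraries. Chromosome 16 stands at 1.32 in B-ALL and 1.40 in AML and chromosome 19 at 0.734 in B-ALL and 1.06 in AML, where dotted lines mark 0.5, 1 and 1.5.

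Chromosome 19 was given as lost in B-ALL, and the depth of AML showed no such loss. In B-ALL, 9 loss rows at 1 copy covered 57.7 Mb, and 694 of the 705 protein-coding genes of the chromosome (98.4%) lay whole inside them. All 30 listed genes did so, as nearly every gene of the chromosome did, among them the tumour suppressors Men1 and Sufu, the death receptor gene Fas, the kinase gene Jak2, the B-cell genes Blnk and Ms4a1 (CD20) and the cohesin gene Smc3. The AML copy number table ends on chromosome 17 (at 39849000) in a line without a line break, so that chromosomes 18, 19 and X of AML have no rows to compare. Depth filled this gap. Over 61 SNVs of chromosome 19 the median ratio was 0.734 in B-ALL (0.684 to 0.805) and 1.06 in AML (1.00 to 1.18), against 0.924 to 1.14 in the other 5 libraries. A loss in every cell would give 0.5. The sites had to pass the limits in B-ALL too, and the effect of this on its ratio was not tested. Ratios swung as far on chromosome 15, with 0.669 (0.649 to 0.699) in the empty control and 1.26 in T-MPAL. Outside the gained and lost chromosomes the B-ALL medians ran from 0.901 to 1.10. Along chromosome 19 the B-ALL ratio was alike, with 0.756, 0.701 and 0.752 over its first 20, next 20 and last 21 sites.

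On chromosome 19, B-ALL had fewer passing calls than AML. Passing calls numbered 112 SNVs and 172 INDELs in B-ALL, against 170 SNVs and 354 INDELs in AML. Of the INDELs held by 1 of the 2 alone, 8 were of B-ALL and 46 of AML, so that B-ALL made up 14.8% (6.62 to 27.1), against 43.3% (41.6 to 45.0) over all chromosomes. There were 2 SNVs of B-ALL only and 6 of AML only. For SNVs the part of B-ALL was 25% with a wide interval (3.19 to 65.1), which includes the 49.6% over all chromosomes. The 3 shared SNVs had 10 of 14, 8 of 17 and 5 of 12 reads in B-ALL and 25 of 25, 12 of 27 and 10 of 20 reads in AML. The 5 shared INDELs had medians of 0.583 in B-ALL and 0.50 in AML, and lay in introns of Lrp5, Myof, Shoc2 and Gfra1 and in 1 intergenic tract. At B-ALL's lower depth, fewer variants can reach the limits, and its part in these counts was not tested.

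**Figure D5:**
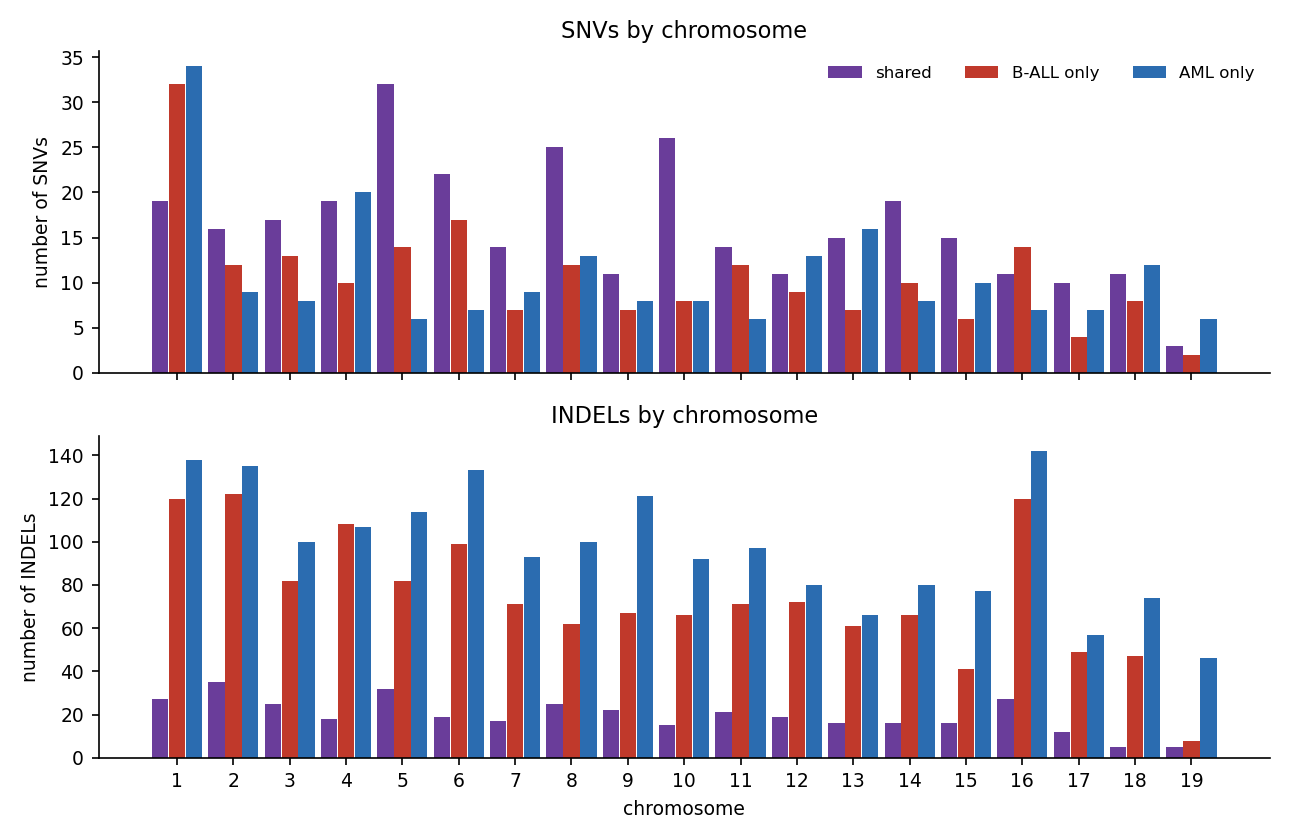
Number of shared, B-ALL only and AML only variants (vertical axis) on each chromosome (horizontal axis), SNVs above and INDELs below. On chromosome 19 the INDELs of B-ALL only (8) are far fewer than those of AML only (46), while on chromosome 16 the numbers are 120 and 142.

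Outside chromosomes 16 and 19, most copy number rows that no other whole table held were separate. B-ALL had 10 gain rows and 6 loss rows without a counterpart in AML, and AML had 6 gain rows and 1 loss row without one in B-ALL. Rows that another whole table also held were all gains, were more numerous and were mostly common to the pair. In B-ALL 65 of these had a counterpart in AML and 13 had none. In AML 63 had a counterpart in B-ALL and 15 had none. Rows are not separate events, since some abut at equal copy number. Examples are the gains of 1 and 102 kb of B-ALL on chromosome 12, and of 2 and 40 kb of AML on chromosome 4. AML rows end on chromosome 17, so the B-ALL gain of 6 kb at Mex3c on chromosome 18 could not be compared. Both tables had a gain of the same 101 kb at Parm1 (chr5:91578001-91679000, a mucin-like membrane protein gene), at 3 copies in B-ALL and 4 in AML, and a 2 kb gain inside Ank1, which encodes the membrane skeleton protein ankyrin, at 12 copies in both. None of the other whole tables had these rows. The longest separate loss of B-ALL was of 195 kb (chr6:19213001-19408000), and another of 30 kb lay inside Pcdh15. The loss of AML was of 74 kb inside Ptprg, a receptor phosphatase gene, and its longest separate gain row was of 40 kb at Ppih and Ybx1. These rows come from 1 caller and 1 library each and were not checked by reads.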

How the data were processed

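Whole-genome DNA was read as pairs of 150 bp from 350 bp fragments with 30x planned, per the labels' protocols. The submitters' processing notes name BWA and mm10. SNVs and INDELs came from samtools, copy number rows from FREEC and annotation from ANNOVAR, per the file headers and names (versions, settings and filters: not given in the sources used here, as for BWA). The deposited variant tables give a Phred-scaled quality score, with 20 as the lowest value, and a column with the depth and number of alternative reads of each call, per the file headers. The deposited copy number tables give whole copy counts and lengths in steps of 1 kb and a genotype confidence score. The AML table ends in the middle of chromosome 17, and that of AUL near its start, so the rows of AUL were not used.

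Alleles were matched by position, reference and alternative base, without regard to case. Counts carry exact Poisson intervals, shares exact Clopper-Pearson intervals and medians binomial order-statistic intervals. Fisher's exact test per shared site was two-sided, with Benjamini-Hochberg adjustment. No test between groups was made, with 1 library each. Row starts are given counting from 1. Genes, spans and promoters came from RefSeq tables of GRCm38.p6, and the deposited annotation gave gene names and protein changes, for the transcript with the farthest position where several are listed. Named are all genes with a protein-altering variant, listed genes with any variant in the gene or inside the rows of chromosomes 16 and 19, and the variants outside coding sequence with the most alternative reads of their class, of which only some are described; some listed genes are not reported here. Members, lists and named genes were chosen with earlier results of these data known. Alternatives changed the limits on depth, quality and read share, the treatment of duplications, repeats, dbSNP, other libraries and nearby calls, and the length of rows. The tools were scipy 1.17.1, pandas 2.3.3, numpy 2.4.6 and matplotlib 3.10.9 under Python 3.11.15. The sorting rule and the test were tested on simulated data.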

Additional observations from a re-analysis of the deposited data

How the results depend on the processing

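Of 169 values recomputed under alternative settings for 22 results, 130 stayed within 1.5 times the count or within the interval of the value. Shared SNVs outnumbered each separate class in 11 of 12 settings, the reported one included, and not without a quality minimum. The order of the separate SNV classes was not stable, with more of AML only in 8 settings and more of B-ALL only in 4. The median share of shared SNVs was lower in B-ALL in 13 of 13 settings, C>T was most frequent among shared SNVs in 12 of 12, and INDELs of AML only outnumbered those of B-ALL only in 12 of 12. The counts depend on the limits. With a minimum of 20 reads there were 125 SNVs of AML only, 59 shared INDELs, 471 of B-ALL only and 627 of AML only, and with 5 reads there were 584 shared INDELs. Without a quality minimum there were 523 shared SNVs, 1285 of B-ALL only and 1405 of AML only, and 2901 shared INDELs, 19157 of B-ALL only and 22578 of AML only. The shared medians were then 0.364 in B-ALL and 0.435 in AML, C>T made up 20.5% of B-ALL only and 20.4% of AML only, and 8 protein-altering variants were of B-ALL only and 11 of AML only. Without annotated repeats there were 166 shared SNVs, 100 of B-ALL only and 101 of AML only, and 20 shared INDELs, 21 of B-ALL only and 30 of AML only. With a share of at least 0.3, 1 protein-altering variant of B-ALL only remained. Where only alleles of the empty control were dropped, there were 991 shared SNVs, 391 of B-ALL only and 372 of AML only, and 1376 shared INDELs, 2966 of B-ALL only and 3739 of AML only. The shared medians were then 0.50 in B-ALL and 0.537 in AML, C>T made up 39.6% of the shared SNVs, and 6 protein-altering variants were of B-ALL only. Another setting dropped alleles with any call of the other 5 libraries within 10 bases. It also took alleles with a partner call that near out of the separate classes, while shared alleles still had to be identical. There were then 209 shared INDELs, 582 of B-ALL only and 782 of AML only, so many separate INDELs had another call close by. With SNVs and INDELs together, the shared median on chromosome 16 was 0.581 in AML. An alternative chosen after seeing the data counted variants below the limits in 1 library as shared, which gave 0.375 in B-ALL. Another such alternative, leaving out sites over 60 reads, moved no value beyond these bounds. Fewer variants tested or a wider rule is part of each setting, and other causes were not tested.

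No paired analysis was possible because each group had 1 library. Without replicates, no result shows how far another mouse with the same leukaemia would differ. Shared SNVs had a median depth of 25 reads in B-ALL and 26 in AML, which limits the precision of each read share.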
